A study of Danio rerio with 19 samples.

Results

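Bihormonal cells of the adult zebrafish islet, which carry GFP from the *sst1.1* promoter together with mCherry from the *ins* promoter, were compared with GFPhigh cells, the strongly fluorescent cells of the *sst1.1* GFP reporter. The libraries were chosen by their labels, and they are 9 of the 19 of the study: 6 of bihormonal cells and 3 of GFPhigh cells. All fish carried the transgene Tg(sst1.1:eGFP) and, for ablation, Tg(ins:NTR\*-P2A-mCherry), and were aged 6 to 10 months, of both sexes. Bihormonal cells came from fish given 2.5 µM nifurpirinol (NFP) for 18 hr to ablate the β-cells, and were collected 20 days post treatment. GFPhigh cells came from control fish given 0.16% DMSO for 18 hr, and the labels name no day for them. Every library is a pool of sorted cells from the main islets of 2 to 4 fish, so a value is that of a pool and not of a fish, and the purity that the submitters give from microscopy is about 95%. The cell sort, the NFP treatment and the ablated islet differ between the groups together and cannot be told apart. The comparison asks which genes separate the resident δ-cell from the cell that also makes insulin after the loss of β-cells.

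δ-cells secrete somatostatin, which restrains the release of insulin and glucagon by their neighbours, and β-cells secrete insulin in response to glucose. The nitroreductase placed behind the *ins* promoter turns NFP into a toxic product, so the drug kills cells that express insulin and spares the others. After such a loss zebrafish regain cells that express insulin, and cells that express both hormones are among them. Names in capitals below are the human symbols that the gene name table gives to zebrafish genes. A gene ID is added where several zebrafish genes share such a name.

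Bihormonal libraries held 6028949 to 18077658 counts and GFPhigh libraries 9631886 to 11972983. GFPhigh replicate 2 (GFPhigh 2) stood apart from all other libraries of the comparison. It had a count for 15331 genes, against 17675 to 20400 in the bihormonal libraries and 18909 and 19249 in GFPhigh 1 and GFPhigh 3. Transcripts of the mitochondrial genome took 1.32% of its counts, against 1.80 to 2.39% in the bihormonal libraries and 2.11% and 2.01% in GFPhigh 1 and GFPhigh 3. Of the genes tested, 31.9% lay below the whole bihormonal range in GFPhigh 2 and 25.7% above it. In GFPhigh 1 these shares were 19.5% and 18.6%, and in GFPhigh 3 they were 16.5% and 16.2%. No pair of libraries held the same counts. Each deposited table carries a library number. These numbers form 6 clusters of close values, here named library sets, and the sources used do not say what the clusters are. Bihormonal and GFPhigh libraries share 1 of these sets, which holds bihormonal 6 and GFPhigh 3. Bihormonal 1 to 3 form a set of their own, bihormonal 4 and 5 share a set with a β-cell library, and GFPhigh 1 and 2 share a set with 2 β-cell libraries. Nothing in the labels says that the pools came from separate experiments, so the p-values measure the spread between pools. That spread was estimated over all 19 libraries of the study, the β-cell and GFPlow pools among them.

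In bihormonal cells 208 of the 14693 genes tested (1.42%) were higher and 197 (1.34%) lower than in GFPhigh cells, 2.76% together. Here the called genes are those that edgeR's quasi-likelihood test places past a Benjamini-Hochberg adjusted p of 0.05, with more than a 2-fold difference. Counts of genes that edgeR called with all libraries in the lists below stand beside these 1.42% and 1.34%. By DESeq2's Wald test the calls over all genes were 623 higher and 529 lower of 14604. Without GFPhigh replicate 2 that test called 118 and 60 of 14630. DESeq2 calls in the lists stand beside those counts. Before adjustment, edgeR's p was under 0.05 for 4095 of the 14693 genes, in either direction. Log2 ratios are fitted fold changes of bihormonal over GFPhigh cells, given with their standard error (SE), and their median over all genes tested was 0.05, with 7733 genes above 0 and 6957 below. The libraries of the 2 groups did not overlap for 184 of the 208 genes called higher and for 144 of the 197 called lower. Among all genes tested the groups did not overlap for 6.68% in the higher and 4.66% in the lower direction. When libraries were scaled by their totals alone, 21 genes passed as higher and 29 as lower, with a median log2 ratio of -0.19 over all genes. In that scaling, *sst1.1* transcripts count in full: they took 29.5 to 58.5% of the counts of the bihormonal libraries and 40.3 to 52.4% of those of the GFPhigh libraries.

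**Figure D1:**
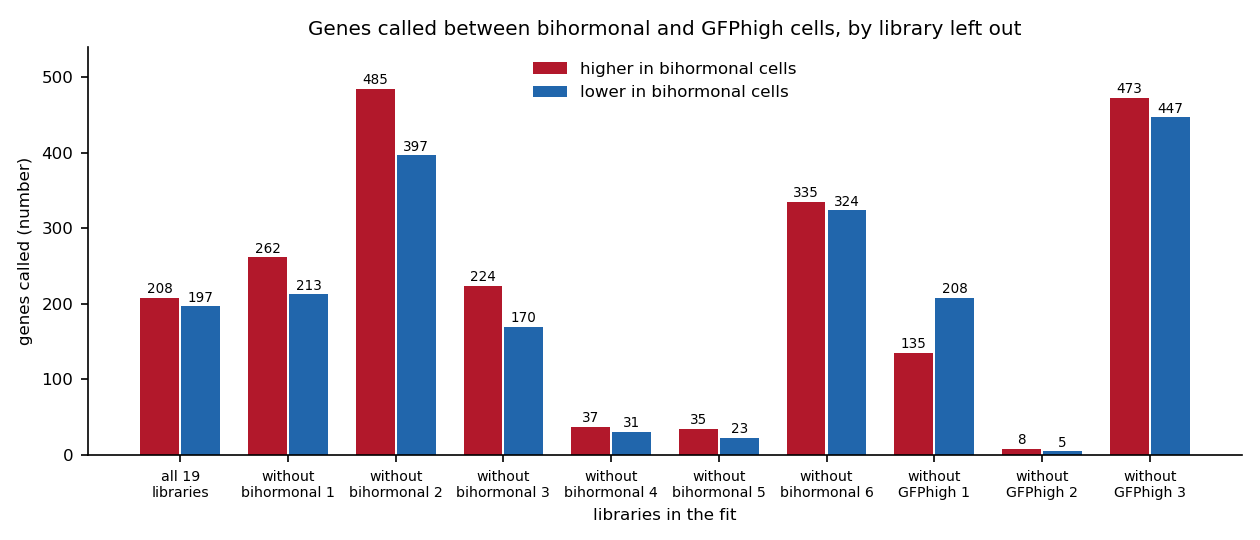
The number of genes called higher (red) and lower (blue) in bihormonal cells than in GFPhigh cells, with all 19 libraries and with each of the 9 libraries left out of the fit in turn. The bars without GFPhigh 2 hold 8 and 5 genes, against 208 and 197 with all libraries.

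Most of these calls were lost without GFPhigh 2. Without it, 8 genes (0.0544%) were called higher and 5 (0.0340%) lower of 14711 tested, 0.0884% together, and 2420 genes had an unadjusted p under 0.05. DESeq2's Wald test without GFPhigh 2 called 118 higher and 60 lower, against 623 and 529 with it. GFPhigh 2 was the lowest of the 3 GFPhigh libraries for 144 of the 208 genes called higher (69.2%, against 44.5% of all genes tested), and it had no count for 49 of them (23.6%, against 9.01% of all). It was the highest of the 3 for 150 of the 197 genes called lower (76.1%, against 36.9% of all). The direction of the differences changed less than the calls did when it was left out. Of the 401 called genes that could be tested without it, 400 kept their sign, and 287 kept a fold above 2. The libraries left in are part of the fit that called these genes, so kept signs are no separate support. The median log2 ratio was 1.41 without GFPhigh 2, against 1.61 with it, for the genes called higher. For the genes called lower it was -1.15 without GFPhigh 2, against -1.57 with it. The gene that turned was *fut9b.6*, and it was chosen for mention after its values were seen. The plot of fold changes with and without GFPhigh 2 shows the genes called lower pulled toward 0 more than the genes called higher.

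**Figure D2:**
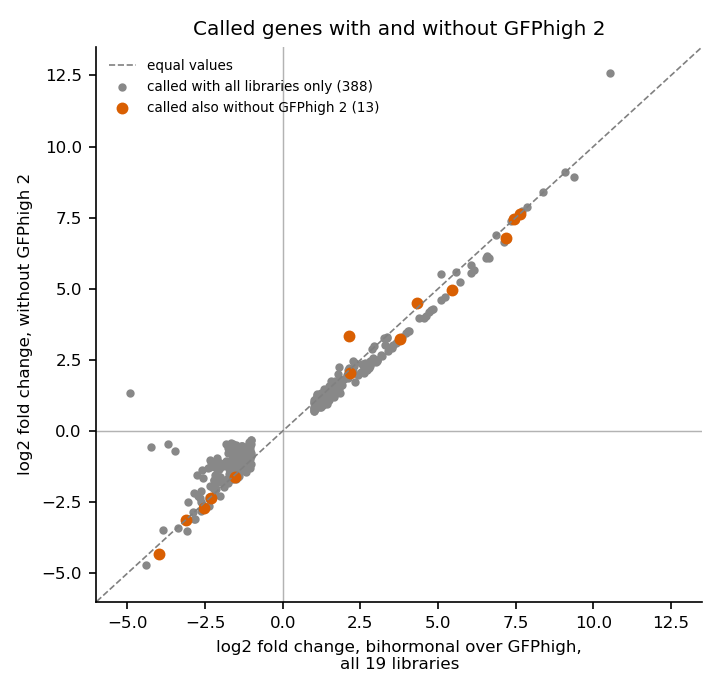
The log2 ratio, bihormonal over GFPhigh cells, with all 19 libraries (x axis) and without GFPhigh 2 (y axis), 1 point per gene called with all libraries and tested in both fits. Orange points are the 13 genes called in both fits, grey points the other 388, and the dashed line marks equal values.

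Other libraries also set the number of calls. A fit of the 2 groups alone, without the β-cell and GFPlow libraries and with GFPhigh 2 kept, called 22 genes higher and 9 lower. The fits that follow in this paragraph hold all groups. Without bihormonal 4, 37 genes were higher and 31 lower. Without bihormonal 5, 35 were higher and 23 lower. Leaving out bihormonal 2 gave 485 and 397 genes, and leaving out GFPhigh 3 gave 473 and 447. Without GFPhigh 1 the counts were 135 and 208. Without bihormonal 6, 324 genes were lower, and the count of higher genes was also above that with all libraries. Of the 405 called genes, 12 were called in all 9 fits that leave out a library, 7 of them higher and 5 lower. In the 8 fits that leave out a library other than GFPhigh 2, 47 of the 405 were called each time, the 12 among them. When the library set was a block, 30 genes (0.204%) were higher and 11 (0.0749%) lower, 0.279% together, of which 25 and 5 were also called without the block. Of 73 called genes followed through the fits, 57 lost their call under the block. Those given below that kept it were *ins*, *FSTL1*, *tmem196b*, *rps27l*, *PANX1*, *nkx6.1*, *ppdpfb*, *CBLN4*, *KPNA2*, *tm4sf21a*, *CCNG1*, *CCNB1*, *MAD2L1*, *cdh10a*, *eys* and *NPAS4*. Bihormonal 1 to 3 do not enter the difference in that fit. Between bihormonal 6 and GFPhigh 3, the pair that shares a set, all 208 genes called higher were higher in bihormonal 6, and 125 of them differed more than 2-fold. Of the 197 genes called lower, 183 were lower in bihormonal 6, and 89 of them differed more than 2-fold. These 2 libraries are part of the fit that called the genes.

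Of the genes behind the sort, *ins* set the libraries apart as labelled, and *sst1.1* was high in both groups. *ins* (ENSDARG00000035350), which encodes insulin, had 197178 to 867014 normalized counts in bihormonal cells, with a median of 379676. GFPhigh cells had 2049, 1133 and 5806. The log2 ratio was 7.19 ± 0.78 SE (adjusted p = 0.000141), and the groups did not overlap. β-cells averaged 2571387 normalized counts. The sort chose cells by the *ins* and *sst1.1* promoters, so neither gene is a finding here. *sst1.1* had 2887145 to 13550125 normalized counts in bihormonal cells, with a median of 6332821, against 5098018, 7391630 and 4474034 in GFPhigh cells. The groups overlapped for it, with a log2 ratio of 0.36 ± 0.73 SE (adjusted p = 0.770). The δ-cell homeobox gene *hhex* had 335.6 to 732 in bihormonal cells and 535, 350 and 564 in GFPhigh cells, a log2 ratio of 0.16 ± 0.28 SE (adjusted p = 0.739). It averaged 1.86 normalized counts in β-cells.

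Markers of other cells that the gate could hold were looked up in both groups. Those of *sst2* δ-cells are given below with *cdx4*. The study finds such cells in its GFPlow sort, the weakly fluorescent cells of the same reporter. The summed level of the 20 acinar markers was 137 to 1051 normalized counts in bihormonal cells and 145 to 315 in GFPhigh cells. That of the 22 leukocyte markers was 76.9 to 362 in bihormonal cells and 35.4 to 252 in GFPhigh cells. The acinar factor gene *PTF1A* had no count in any library of either group, and the duct channel gene *CFTR* had 0.918 to 6.97 normalized counts in bihormonal cells and 0 to 3.63 in GFPhigh cells. *ANXA4* had 13.9 to 412 in bihormonal cells and 37.5 to 82.5 in GFPhigh cells. *krt4* had 0 to 39.2 in bihormonal cells and 0 to 2.42 in GFPhigh cells. The sum of the duct markers is given below with *nkx6.1*. The endothelial gene *kdrl* and the leukocyte gene *ptprc* stayed under 12 normalized counts in all 9 libraries. Among markers that define β-cells, *nkx6.2* averaged 0.345 ± 0.540 in the 6 bihormonal libraries, 1.56 ± 1.87 in the 3 GFPhigh libraries (SD each) and 1138 in β-cells. *MNX1*, another homeobox gene of β-cells, averaged 11.4 ± 10.4 in bihormonal cells (SD, n = 6), 2.11 ± 3.65 in GFPhigh cells (SD, n = 3) and 2011 in β-cells. Its adjusted p between bihormonal and GFPhigh cells was 0.128. The summed level of the 14 α-cell markers was 6233 to 92510 in bihormonal cells and 6704, 1084 and 4715 in GFPhigh cells, with GFPhigh 2 at the lowest value. Of the 6 α-cell markers tested, 5 were above 0 on the log2 scale and 0 were called. Of them 3 had an unadjusted p under 0.05 by edgeR, and DESeq2 called 3. The glucagon gene *gcga* had 4039 to 64986 normalized counts in bihormonal cells, with a median of 16523, against 4509, 94.3 and 2864 in GFPhigh cells. Its log2 ratio was 3.19 ± 0.89 SE and its adjusted p was 0.0502, which misses the threshold. The parts of α-cell RNA and of *sst2* δ-cell RNA in the results below were not tested. In these bulk samples, more cells of a type and more RNA per cell cannot be told apart.

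The 13 genes called both with all libraries and without GFPhigh 2 were 8 genes higher and 5 lower in bihormonal cells. The 8 include *ins*, by whose promoter the cells were sorted. Of these genes *tmem196b*, *PANX1*, *si:dkey-215k6.1*, *twist1b*, *PPARA* and *NRCAM* fall outside the rule for named genes and were chosen after their values were seen. Besides *ins*, 7 genes were higher. *FSTL1* (ENSDARG00000015559), a secreted follistatin-like glycoprotein, had 151 to 1029 normalized counts in bihormonal cells, with a median of 489, and 12.1, 2.36 and 21.1 in GFPhigh cells. The lowest bihormonal library stood above the highest GFPhigh library. The log2 ratio was 5.44 ± 0.73 SE (adjusted p = 0.00178), and without GFPhigh 2 it was 4.96 (adjusted p = 0.0146). β-cells averaged 348. *rps27l*, which encodes a protein like the ribosomal protein S27, had 2391 to 3313 in bihormonal cells, with a median of 2555, against 616, 502 and 680 in GFPhigh cells. Both groups were even, and the log2 ratio was 2.16 ± 0.31 SE (adjusted p = 0.00244), and 2.05 without GFPhigh 2 (adjusted p = 0.0352).

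*PPP1R3B* encodes a subunit that brings protein phosphatase to glycogen. It had 323 to 992 normalized counts in bihormonal cells, with a median of 615, against 38.7, 36.6 and 16.8 in GFPhigh cells. It had a log2 ratio of 4.34 ± 0.64 SE (adjusted p = 0.00289), and 4.49 without GFPhigh 2 (adjusted p = 0.0242). β-cells averaged 0.811, below both groups. *PANX1* (ENSDARG00000014910), a pannexin channel, had 25.7 to 85.2 in bihormonal cells, with a median of 50.7, against 3.63, 0 and 7.37 in GFPhigh cells. The fitted log2 ratio was 3.79 ± 0.58 SE (adjusted p = 0.00351), and 3.24 without GFPhigh 2 (adjusted p = 0.0242). GFPhigh 2 was the library without a count here, yet GFPhigh 1 and GFPhigh 3 also stood below all 6 bihormonal libraries.

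Of the other genes called higher, 2 had no count in any GFPhigh library. *tmem196b*, which encodes a membrane protein, had 13.8 to 35.5 normalized counts in bihormonal cells, with a median of 17.0, and β-cells averaged 426. Against a floor of 3 counts over the GFPhigh libraries together, it was at least 18.8-fold higher in bihormonal cells (adjusted p = 0.00178, and 0.0146 without GFPhigh 2). *si:dkey-215k6.1* had 9.18 to 58.1 in bihormonal cells, with a median of 20.2, and was at least 18.4-fold higher against the same floor (adjusted p = 0.00674, and 0.0479 without GFPhigh 2). Such floors cover counting error only, since reads amplified by PCR and lacking molecular identifiers do not stand for separate molecules. *twist1b*, a transcription factor gene, had 44.0 to 156 in bihormonal cells, with a median of 87.3, against 8.47, 44.8 and 9.47 in GFPhigh cells. GFPhigh 2 was here the highest of the GFPhigh libraries and lay within the bihormonal range. The log2 ratio was 2.13 ± 0.47 SE (adjusted p = 0.0318) with it and 3.33 without it (adjusted p = 0.00743). The call was lost without bihormonal 5 or GFPhigh 1, with adjusted p up to 0.0643.

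**Figure D3:**
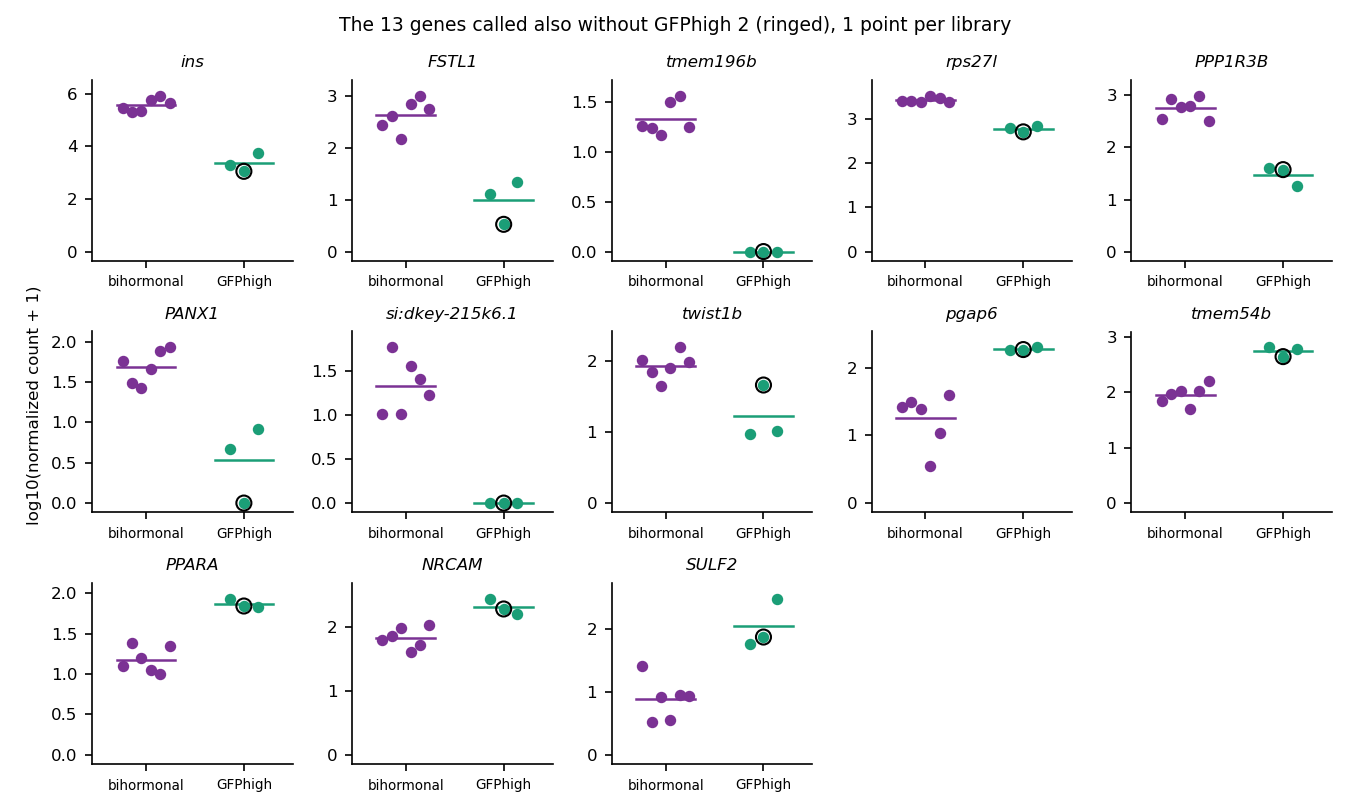
The log10 of the normalized count plus 1 of the 13 genes called with and without GFPhigh 2, with 1 point per library, bihormonal cells left and GFPhigh cells right, and a line at the mean of the plotted values. GFPhigh 2 is ringed, and for *twist1b* it lies at 44.8 normalized counts, within the bihormonal range of 44.0 to 156.

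Among the 5 genes called lower with and without GFPhigh 2, *pgap6*, named for a role in processing lipid-anchored proteins, had 2.56 to 38.4 normalized counts in bihormonal cells, with a median of 24.6, against 184, 184 and 200 in GFPhigh cells. It had a log2 ratio of -3.11 ± 0.43 SE (adjusted p = 0.00178, and 0.00952 without GFPhigh 2). β-cells averaged 1.098. *tmem54b*, a membrane protein gene, had 48.7 to 158 in bihormonal cells, with a median of 97.1, against 650, 437 and 606 in GFPhigh cells. The fitted log2 ratio was -2.55 ± 0.39 SE (adjusted p = 0.00351, and 0.0146 without GFPhigh 2), and β-cells averaged 96.2. *SULF2*, an extracellular sulfatase that trims heparan sulfate, had 2.32 to 25.4 in bihormonal cells, with a median of 7.43, against 58.1, 74.3 and 308 in GFPhigh cells. Its log2 ratio was -3.99 ± 0.77 SE (adjusted p = 0.0164), and -4.31 without GFPhigh 2 (adjusted p = 0.0479). *PPARA*, a nuclear receptor that responds to fatty acids, had 8.88 to 23.2 in bihormonal cells, with a median of 13.1, against 84.7, 68.4 and 66.3 in GFPhigh cells. It had a log2 ratio of -2.31 ± 0.36 SE (adjusted p = 0.00398, and 0.0162 without GFPhigh 2). *NRCAM*, a neuronal adhesion molecule, had 39.7 to 109 in bihormonal cells, with a median of 66.6, against 282, 193 and 160 in GFPhigh cells. The fitted log2 ratio was -1.55 ± 0.26 SE (adjusted p = 0.00735, and 0.0368 without GFPhigh 2). For each of these 5 genes all 6 bihormonal libraries lay below all 3 GFPhigh libraries. GFPlow cells averaged 445 for *pgap6* and 2374 for *NRCAM*, above GFPhigh cells. For *tmem54b*, *SULF2* and *PPARA* they averaged 87.7, 35.4 and 23.3, below GFPhigh cells.

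In the fit blocked on library set, 5 of the 13 genes were called: *ins*, *FSTL1*, *tmem196b*, *rps27l* and *PANX1*. The other 8 had adjusted p of 0.0616 to 0.439 in that fit, with the sign unchanged. In the pair of bihormonal 6 and GFPhigh 3, the log2 difference was 4.67 for *FSTL1*, 1.81 for *rps27l*, 4.18 for *PPP1R3B*, -2.35 for *pgap6* and -0.54 for *NRCAM*.

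*nkx6.1* encodes a homeodomain factor that in zebrafish marks duct and progenitor cells of the pancreas, while mammalian β-cells depend on its counterpart. It had 67.0, 44.1, 23.9, 64.1, 127 and 84.3 normalized counts in bihormonal replicates 1 to 6 and no count in any of the 3 GFPhigh libraries, and β-cells averaged 32.0. The study describes *nkx6.1* as scarcely expressed in bihormonal cells, as in control β-cells. Against a floor of 3 counts over the GFPhigh libraries, it was at least 61.1-fold higher in bihormonal cells (adjusted p = 0.00696). Under the library set block the adjusted p was 0.00796. Without GFPhigh 2 it was 0.0558, although the remaining GFPhigh libraries had no count either, and it was called in each of the 8 other fits that leave out a library. Of the 10 duct markers tested, *nkx6.1* was the 1 called. The summed level of the 16 duct markers was 3211 to 7531 in bihormonal cells and 4936, 4796 and 6965 in GFPhigh cells, so the groups overlapped. Of the 41 endocrine transcription factors tested, 1 was called higher and 2 lower, and their median log2 ratio was -0.01, against 0.05 for all genes.

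The 2 transcription factor genes called lower were *RFX6*, a regulator of islet cell identity, and *cdx4*, a caudal homeobox gene. *RFX6* had 543 to 1765 normalized counts in bihormonal cells, with a median of 1516, against 2686, 3385 and 2651 in GFPhigh cells. The groups did not overlap, and the log2 ratio was -1.11 ± 0.29 SE (adjusted p = 0.0454). *cdx4* had 0 to 3.84 in bihormonal cells and 7.26, 18.9 and 10.5 in GFPhigh cells, a log2 ratio of -2.72 ± 0.75 SE (adjusted p = 0.0492). *cdx4* belongs to the genes that mark *sst2* δ-cells, and the 5 tested genes of that list all had a log2 ratio below 0, with a median of -1.21, though 1 was called. *sst2* itself had 513.2 to 38833 in bihormonal cells and 11667, 37588 and 35375 in GFPhigh cells (adjusted p = 0.349). GFPlow cells averaged 1719378 for *sst2* and 290 for *cdx4*. Without GFPhigh 2 neither transcription factor gene was called (adjusted p = 0.229 and 0.248). Both calls were also lost without bihormonal 4, bihormonal 5 or GFPhigh 1, and that of *cdx4* without bihormonal 1, 3 or 6.

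Of 10 genes that the study names for *sst1.1* δ-cells, 0 were called higher and 1 lower, *cdh10a*, with a median log2 ratio of 0.36, and -0.30 under the library set block. The study chose them on these samples, so they are no independent evidence. *pdx1*, a transcription factor of β-cells and these δ-cells, had 20310 to 54958 normalized counts in bihormonal cells, with a median of 26417, against 15879, 16702 and 23019 in GFPhigh cells. The log2 ratio was 0.74 ± 0.34 SE (adjusted p = 0.158). *SLC2A2*, a glucose transporter, averaged 2514 ± 367 in bihormonal cells (SD, n = 6) and 2178 ± 331 in GFPhigh cells (SD, n = 3), with a log2 ratio of 0.21 ± 0.22 SE (adjusted p = 0.553). *ucn3l* and *BDNF*, which encode a urocortin peptide and a neurotrophin, had log2 ratios of 0.69 ± 0.58 SE and 0.49 ± 0.43 SE. These p-values do not show that the levels were equal. Before adjustment over all genes tested, edgeR's p was 0.0396 for *pdx1*, 0.352 for *SLC2A2*, 0.246 for *ucn3l* and 0.265 for *BDNF*.

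*cdh10a* stood apart among these δ-cell genes. It encodes a cadherin of cell adhesion and had 322, 618, 799, 30.7, 91.1 and 27.6 normalized counts in bihormonal replicates 1 to 6, against 1674, 2323 and 1825 in GFPhigh cells. Bihormonal 4 to 6 lay below bihormonal 1 to 3, and all 6 lay below GFPhigh cells. The log2 ratio was -2.63 ± 0.71 SE (adjusted p = 0.0471). With the library set as a block it was -6.05 (adjusted p = 0.00874), a fit that bihormonal 1 to 3 do not enter. The call was lost without GFPhigh 2 (adjusted p = 0.214), and also without bihormonal 1, 4 or 5 or GFPhigh 1. β-cells averaged 5.72.

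In the secretory machinery, 3 of the 55 tested genes for sensing glucose and secreting insulin (5.45%, against 1.42% of all genes) were called higher and 1 (1.82%, against 1.34%) lower, with a median log2 ratio of -0.05. Of the 3 called higher, 1 was *FSTL1*, a secreted glycoprotein that the study names for this comparison. *FSTL1* also stands in the list of ligands and receptors of growth and guidance. The prohormone convertase gene *PCSK2*, whose product cleaves proinsulin and prosomatostatin, had 28837 to 79234 normalized counts in bihormonal cells, with a median of 46419, against 121714, 217744 and 89902 in GFPhigh cells. The groups did not overlap, and the log2 ratio was -1.51 ± 0.40 SE (adjusted p = 0.0453, and 0.264 without GFPhigh 2). The other convertase gene, *PCSK1*, overlapped, with 17072 to 40931 in bihormonal cells and 36655, 66699 and 22154 in GFPhigh cells (log2 ratio -0.51 ± 0.35 SE, adjusted p = 0.341). For both genes GFPhigh 2 was the highest library. *rims2a*, a scaffold of vesicle release sites, averaged 9310 ± 1437 in bihormonal cells (SD, n = 6) and 3960 ± 1349 in GFPhigh cells (SD, n = 3), with a log2 ratio of 1.23 ± 0.27 SE (adjusted p = 0.0320). *SNAP25* (ENSDARG00000058117), a fusion protein of secretory vesicles, had 454, 483, 351, 2092, 1247 and 379 in bihormonal replicates 1 to 6 and 159, 211 and 214.7 in GFPhigh cells (log2 ratio 2.098 ± 0.53 SE, adjusted p = 0.0415). Bihormonal 4 and 5 were the highest for it. Without GFPhigh 2 the adjusted p was 0.185 for *rims2a* and 0.199 for *SNAP25*. *PCSK2*, *rims2a* and *SNAP25* also lost their calls without bihormonal 4, bihormonal 5 or GFPhigh 1.

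Among the genes with the largest fold and a mean of at least 100 normalized counts in bihormonal cells, several varied widely within the bihormonal cells. *RGCC*, named as a regulator of the cell cycle, had 4429 normalized counts in bihormonal 5 and 2.32 to 41.0 in the other 5 bihormonal libraries. It had 1 read over the GFPhigh libraries, in GFPhigh 2. The ratio of the groups was 2020 (95% counting interval 362 to 79821), and it rests on bihormonal 5. Counting intervals, here and below, use reads summed over libraries and leave out the spread between pools. The adjusted p of *RGCC* was 0.0498, and 0.240 without GFPhigh 2. *CBLN4*, a secreted protein that organizes synapses, had 55.4, 9.29, 11.01, 984, 763 and 171 in bihormonal replicates 1 to 6 and 0, 0 and 1.05 in GFPhigh cells. The ratio was 859 (95% counting interval 154 to 33956), with an adjusted p of 0.0282, and 0.163 without GFPhigh 2. *TXNIP* (ENSDARG00000070000), a glucose-induced inhibitor of thioredoxin, had 111 and 576 in bihormonal 4 and 5, 6.42 to 14.2 in the other bihormonal libraries, and 0, 0 and 2.11 in GFPhigh cells (adjusted p = 0.0363, and 0.199 without GFPhigh 2). *KPNA2*, an importin that carries proteins into the nucleus, had 297, 298 and 162 in bihormonal 4 to 6, 9.24 to 27.5 in bihormonal 1 to 3, and 2.42, 1.18 and 2.11 in GFPhigh cells. The fitted log2 ratio was 6.05 ± 1.38 SE (adjusted p = 0.0329), with 0.184 without GFPhigh 2 and 0.00292 in the fit blocked on library set. All 4 calls were also lost without GFPhigh 1. Without bihormonal 4 those of *RGCC*, *TXNIP* and *KPNA2* were lost, without bihormonal 5 those of *CBLN4* and *KPNA2*, and without GFPhigh 3 that of *RGCC*. Without bihormonal 5, *RGCC* and *TXNIP* fell below the mean of 10 normalized counts that the test requires and were not tested.

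**Figure D4:**
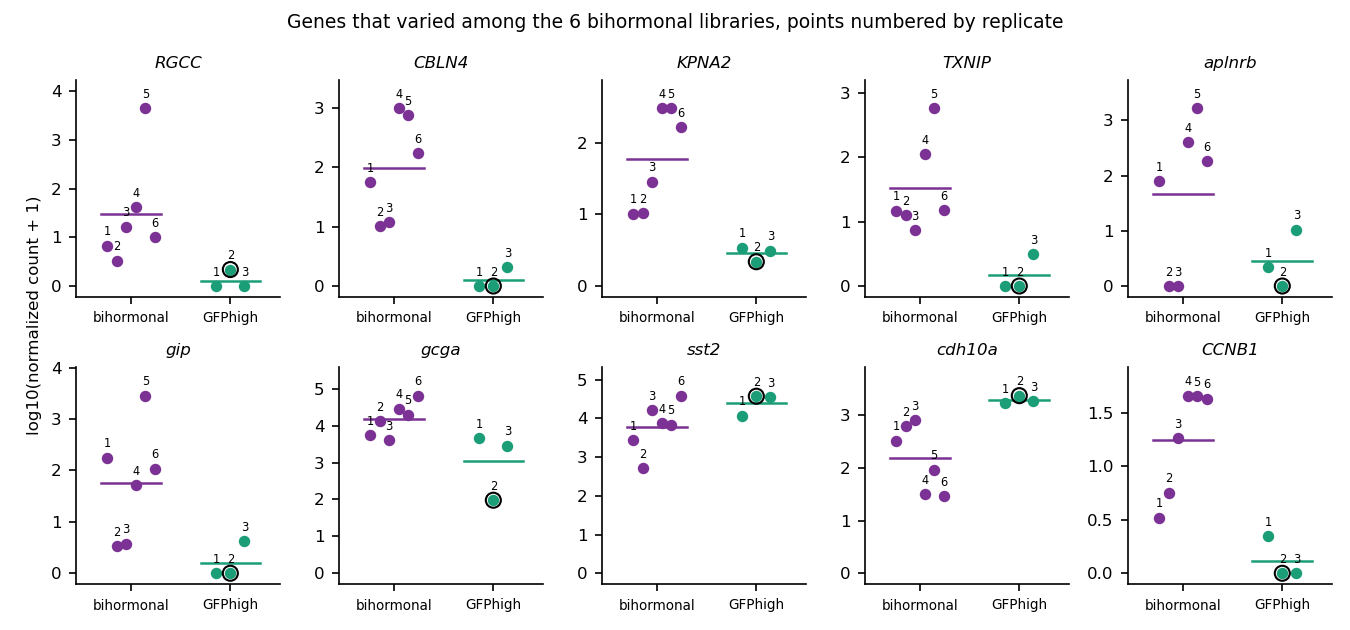
The log10 of the normalized count plus 1 of 10 genes that varied among the bihormonal libraries, 1 point per library numbered by replicate, bihormonal cells left and GFPhigh cells right, with a line at the mean of the plotted values and GFPhigh 2 ringed. *RGCC* reached 4429 normalized counts in bihormonal 5 and at most 41.0 in the others.

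*ppdpfa*, a gene named for pancreatic progenitor differentiation, had 4488 to 43493 normalized counts in bihormonal cells, with a median of 12957, against 939, 268 and 1397 in GFPhigh cells. Its log2 ratio was 4.40 ± 0.75 SE (adjusted p = 0.00817), and β-cells averaged 82.7. Its paralog *ppdpfb*, which was chosen after its values were seen, had 89720 to 246749 in bihormonal cells and 35981, 32570 and 24854 in GFPhigh cells, a log2 ratio of 2.16 ± 0.39 SE (adjusted p = 0.0106). *ppdpfb* averaged 83906 in β-cells. Both genes kept their calls whichever library other than GFPhigh 2 was left out, and without GFPhigh 2 their adjusted p was 0.0734 and 0.0824. Under the library set block *ppdpfa* was not called (adjusted p = 0.109) and *ppdpfb* was (adjusted p = 0.0480). *IGF1*, an insulin-like growth factor, had 9.18 to 133 in bihormonal cells, with a median of 35.0, against 0, 0 and 1.05 in GFPhigh cells. The 133 was in bihormonal 1, and the others reached 53.4. Its ratio was 128 (95% counting interval 22.8 to 5078), with an adjusted p of 0.0120, and 0.0886 without GFPhigh 2. *IGF1* was the 1 called gene among the 59 insulin signalling genes tested. *SOSTDC1*, a secreted antagonist of BMP and Wnt ligands, had 575 in bihormonal 5, 45.9 to 114 in the other bihormonal libraries and 6.05, 0 and 14.7 in GFPhigh cells (log2 ratio 4.53 ± 1.04 SE, adjusted p = 0.0348). *CACNA1E*, a voltage-gated calcium channel, had 42.2 to 259 in bihormonal cells and 30.3, 0 and 29.5 in GFPhigh cells (log2 ratio 2.99 ± 0.71 SE, adjusted p = 0.0348). GFPhigh 2 had no count for either gene, and without it the adjusted p was 0.180 and 0.152. Both calls were also lost without bihormonal 4 or 5, and that of *SOSTDC1* without GFPhigh 1.

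Cell cycle genes were more often higher than lower in bihormonal cells. Of 107 tested, 11 were called higher (10.3%, against 1.42% of all genes) and 0 lower, and 86 had a log2 ratio above 0 (7733 of all 14693 genes), with a median of 0.66 against 0.05 for all genes. Without GFPhigh 2 the median was 0.64 and 83 of the 107 were above 0. edgeR then called 0 of them, with 38 higher at an unadjusted p under 0.05, and DESeq2 called 7. In the same fits 2420 of all 14711 genes had such a p in either direction, and DESeq2 called 118 of 14630 higher. *CCND1*, the D-type cyclin that starts the entry into the cycle, had 58.7 to 407 normalized counts in bihormonal cells, with a median of 180, against 17.0, 0 and 7.37 in GFPhigh cells. The groups did not overlap, and the log2 ratio was 4.62 ± 0.82 SE (adjusted p = 0.00927, and 0.0752 without GFPhigh 2). *PCNA*, the clamp of DNA replication, had 267 to 553 in bihormonal cells, with a median of 411, against 145, 224 and 213 in GFPhigh cells (log2 ratio 1.06 ± 0.28 SE, adjusted p = 0.0460, and 0.180 without GFPhigh 2). For *CCND1*, GFPlow cells averaged 302 and β-cells 98.7, against 200 in bihormonal cells. For *PCNA*, these averages were 281, 263 and 405.

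Genes of mitosis were highest in bihormonal 4 to 6. *CCNB1*, the cyclin of entry into mitosis, had 2.31, 4.64 and 17.4 normalized counts in bihormonal 1 to 3, 44.8, 44.4 and 41.7 in bihormonal 4 to 6, and 1.21, 0 and 0 in GFPhigh cells. The ratio was 73.8 (95% counting interval 13 to 2933, adjusted p = 0.0390). *MAD2L1*, of the spindle checkpoint, had 4.62 to 75.5 in bihormonal cells and 3.63, 0 and 0 in GFPhigh cells, a ratio of 30.6 (95% counting interval 10.3 to 150, adjusted p = 0.0404). In the fit blocked on library set both were called (adjusted p = 0.0149 and 0.0239), and without GFPhigh 2 neither was (adjusted p = 0.199 and 0.202). *CDKN2C*, which inhibits the kinases of D-type cyclins, had 12.8 to 54.4 in bihormonal cells and 6.05, 0 and 0 in GFPhigh cells (log2 ratio 3.63 ± 0.90 SE, adjusted p = 0.0404, and 0.200 without GFPhigh 2). Further genes of the cycle were looked up after their values were seen. *mki67*, a marker of cycling cells, had 26.6 to 255 in bihormonal cells and 50.8, 0 and 16.8 in GFPhigh cells (adjusted p = 0.0587). *TOP2A* and *CDK1* had adjusted p of 0.0651 and 0.0638, and under the library set block both were called (adjusted p = 0.0149 each). For *TOP2A* and *CDK1*, GFPhigh 2 and GFPhigh 3 had no count, and GFPhigh 1 had 12.1 and 25.4. The calls of *CCNB1*, *MAD2L1* and *CDKN2C* were lost without GFPhigh 3 as well, and those of *MAD2L1* and *CDKN2C* without bihormonal 4 or 5. That of *CCNB1* was lost without GFPhigh 1, and that of *PCNA* without bihormonal 4, 5 or 6 or GFPhigh 1. Without bihormonal 3, 4, 5 or 6, *CCNB1* fell below the mean of 10 normalized counts that the test requires and was not tested.

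*CCNG1*, a cyclin gene induced by DNA damage, had 6158 to 10613 normalized counts in bihormonal cells, with a median of 8275, against 2830, 2419 and 3251 in GFPhigh cells. The groups did not overlap, and the log2 ratio was 1.55 ± 0.30 SE (adjusted p = 0.0167). Under the library set block the adjusted p was 0.0369, and without GFPhigh 2 it was 0.126. β-cells averaged 6250 and GFPlow cells 3673.

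*GADD45G*, a stress gene of growth arrest, had 1888 to 7593 normalized counts in bihormonal cells, with a median of 3921, against 1144, 929 and 1058 in GFPhigh cells (log2 ratio 2.06 ± 0.50 SE, adjusted p = 0.0390). *sesn2*, a stress-induced inhibitor of TORC1, had 237 to 636 in bihormonal cells and 130, 62.5 and 183 in GFPhigh cells (log2 ratio 1.65 ± 0.41 SE, adjusted p = 0.0408). *BAX*, which permeabilizes mitochondria, had 108 to 183 in bihormonal cells and 53.3, 14.2 and 93.7 in GFPhigh cells (log2 ratio 1.41 ± 0.38 SE, adjusted p = 0.0460). None of these 3 overlapped between the groups, and GFPhigh 2 was the lowest library for each. Their adjusted p without it was 0.202, 0.226 and 0.211, and their calls were also lost without bihormonal 4, bihormonal 5 or GFPhigh 1. *mdm2*, which encodes a ubiquitin ligase, missed the threshold, with 463 to 973 in bihormonal cells and 265, 469 and 252 in GFPhigh cells (log2 ratio 1.00 ± 0.28 SE, adjusted p = 0.0502). GFPhigh 2 was the highest GFPhigh library for *mdm2*, and without it the log2 ratio was 1.34 (adjusted p = 0.0886). *cdkn1a*, which encodes an inhibitor of cyclin-dependent kinases, was looked up after its values were seen. It had 29.99 to 74.3 in bihormonal cells and 8.47, 15.3 and 10.5 in GFPhigh cells, without overlap (log2 ratio 2.17 ± 0.76 SE, adjusted p = 0.0821).

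Of the immediate early genes, which encode transcription factors that excitation, stress or tissue dissociation switches on quickly, 4 fell in bihormonal cells. They were 4 of 51 tested (7.84%, against 1.34% of all genes), with 0 called higher. In all, 34 of the 51 had a log2 ratio below 0 (6957 of all 14693 genes), and the median was -0.31, or -0.44 without GFPhigh 2. edgeR then called 0 of them, with 12 lower and 1 higher at an unadjusted p under 0.05, while DESeq2 called 2 lower and 1 higher. In the same fits 2420 of all 14711 genes had such a p, and DESeq2 called 60 of 14630 lower and 118 higher. *egr2a* had 3.33 to 22.5 normalized counts in bihormonal cells, with a median of 6.69, against 87.2, 87.3 and 113 in GFPhigh cells, a log2 ratio of -3.37 ± 0.60 SE (adjusted p = 0.00929). Without GFPhigh 2 its log2 ratio was -3.43 and its adjusted p was 0.0506. *egr4* had 1407 to 5743 in bihormonal cells and 7426, 20620 and 11062 in GFPhigh cells (log2 ratio -2.20 ± 0.50 SE, adjusted p = 0.0332). *NPAS4* (ENSDARG00000055752), a factor induced by calcium entry, had 412 to 1834 in bihormonal cells and 2778, 4566 and 4629 in GFPhigh cells (log2 ratio -2.16 ± 0.54 SE, adjusted p = 0.0408). *EGR3* had 1.155 to 23.2 in bihormonal cells and 43.6, 30.7 and 79.0 in GFPhigh cells (log2 ratio -2.38 ± 0.60 SE, adjusted p = 0.0415). For each of these 4 genes the groups did not overlap, and under the library set block *NPAS4* was called (adjusted p = 0.0239) while *egr2a*, *egr4* and *EGR3* were not (adjusted p = 0.188, 0.0791 and 0.188). Without GFPhigh 2 the adjusted p of *egr4*, *NPAS4* and *EGR3* was 0.218, 0.196 and 0.124. Without bihormonal 5 these 3 were not called either. Without bihormonal 4 *NPAS4* and *EGR3* lost their calls, as did *NPAS4* without bihormonal 1 and *EGR3* without GFPhigh 1 or 3. *FOS*, another immediate early gene, overlapped between the groups, at 12236 to 31345 in bihormonal cells and 18709 to 24207 in GFPhigh cells. It was chosen after its values were seen, as was the second *NPAS4* gene (ENSDARG00000087753). That gene also overlapped, at 4.44 to 68.8 in bihormonal cells and 21.2 to 71.4 in GFPhigh cells. The summed level of the immediate early genes overlapped too, at 55891 to 123466 in bihormonal cells and 108220 to 119733 in GFPhigh cells.

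*ROBO1*, an axon guidance receptor, had 357 to 1001 normalized counts in bihormonal cells and 984, 2570 and 1134 in GFPhigh cells, with an overlap (log2 ratio -1.31 ± 0.28 SE, adjusted p = 0.0311). Without GFPhigh 2, its highest library, the log2 ratio was -0.75 (adjusted p = 0.245). *nlgn2b*, a neuroligin, had 15.6 to 78.0 in bihormonal cells and 180, 356 and 132 in GFPhigh cells (log2 ratio -2.22 ± 0.53 SE, adjusted p = 0.0348, and 0.228 without GFPhigh 2). *ROBO1* and *nlgn2b* also lost their calls without bihormonal 4 or 5. *ghrhrl*, named for its likeness to the receptor of growth hormone-releasing hormone, had 7.77 to 48.6 in bihormonal cells and 114, 263 and 120 in GFPhigh cells (log2 ratio -2.63 ± 0.52 SE, adjusted p = 0.0186, and 0.172 without GFPhigh 2). *NCAM1* (ENSDARG00000056181), an adhesion molecule chosen after its values were seen, rested largely on GFPhigh 2. It had 74.3 to 177 in bihormonal cells and 324, 1020 and 246 in GFPhigh cells, and its log2 ratio was -2.02 ± 0.37 SE (adjusted p = 0.0109) with GFPhigh 2 and -1.12 (adjusted p = 0.191) without it.

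Of 93 ligands and receptors of growth and guidance tested, 1 was called higher, *FSTL1*, and 3 lower, among them *ROBO1* and *PDGFA* (ENSDARG00000098578). Their median log2 ratio was -0.52, and -0.42 without GFPhigh 2. Of 74 ion channels of excitability tested, 3 were called higher and 1 lower, with a median of -0.48, and -0.39 without GFPhigh 2. The channel genes called higher were *CACNA1E*, *KCND2* and *atp2b2*, of which the last encodes a calcium pump. *KCND2*, a potassium channel, had 293 to 470 in bihormonal cells, with a median of 362, against 85.9, 57.8 and 102 in GFPhigh cells (log2 ratio 2.19 ± 0.42 SE, adjusted p = 0.0153, and 0.120 without GFPhigh 2). *KCNK3*, a background potassium channel, was the channel called lower, with 49.96 to 167 in bihormonal cells and 234, 221 and 355 in GFPhigh cells (log2 ratio -1.17 ± 0.25 SE, adjusted p = 0.0311). GFPlow cells averaged 3562 for *KCNK3*. Without GFPhigh 2 *KCNK3* had an adjusted p of 0.0842, and its call was also lost without bihormonal 5 or GFPhigh 3. The median of this list lay below 0, while 3 of its genes were called higher and 1 lower. None of these was called without GFPhigh 2, where the adjusted p was 0.152 for *CACNA1E* and 0.226 for *atp2b2*.

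Further genes called lower were taken from those of largest fold without overlap. The complement gene *c3a.1* had 3.84 to 91.0 normalized counts in bihormonal cells and 253, 171 and 357 in GFPhigh cells, a log2 ratio of -2.86 ± 0.58 SE (adjusted p = 0.0228, and 0.0622 without GFPhigh 2). *eys* (ENSDARG00000106564), which encodes an extracellular protein of photoreceptors, had 3.84 to 45.0 in bihormonal cells and 257, 80.2 and 365 in GFPhigh cells (log2 ratio -3.09 ± 0.67 SE, adjusted p = 0.0311, and 0.0558 without GFPhigh 2). *TNS1*, a tensin that links integrins to actin, had 109 to 629 in bihormonal cells and 1279, 1889 and 1033 in GFPhigh cells (log2 ratio -2.09 ± 0.42 SE, adjusted p = 0.0228, and 0.150 without GFPhigh 2). *eys* was called with the library set as a block (adjusted p = 0.0138), while *c3a.1* and *TNS1* were not. All 3 also lost their calls without bihormonal 5, and *eys* without bihormonal 4.

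Genes of protein synthesis and turnover and of respiration had medians above 0 by less than 2-fold. Of 85 cytosolic ribosomal protein genes tested, 83 had a log2 ratio above 0, with a median of 0.91, or 0.73 without GFPhigh 2. 7 were called higher (8.24%, against 1.42% of all genes) and 0 lower. Their summed level overlapped between the groups, at 301739 to 728771 normalized counts in bihormonal cells and 250754 to 333279 in GFPhigh cells. In the pair that shares a library set it was lower in bihormonal 6 (301739) than in GFPhigh 3 (333279). Of 55 proteasome subunit genes, 51 were above 0, with a median of 0.81, and 4 were called higher (7.27%) and 0 lower. Of 90 nuclear genes of oxidative phosphorylation, 87 were above 0, with a median of 0.88, and 4 were called higher (4.44%) and 0 lower. The summed levels of the proteasome and oxidative phosphorylation lists did not overlap between the groups. The medians of these 3 lists stayed above 0 in all 24 alternatives tried, although with library totals alone they were 0.55, 0.52 and 0.54. Under the library set block the ribosomal median was 0.30 and the oxidative phosphorylation median 0.39. Without GFPhigh 2, edgeR called 1, 0 and 0 genes of the 3 lists, with 48, 29 and 59 higher at an unadjusted p under 0.05, and DESeq2 called 2, 2 and 0. In the same fits 2420 of all 14711 genes had such a p in either direction, and DESeq2 called 118 of 14630 higher.

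*RPS24*, of the small ribosomal subunit, had 2532 to 3555 normalized counts in bihormonal cells, with a median of 2978, against 1024, 736 and 1564 in GFPhigh cells (log2 ratio 1.43 ± 0.25 SE, adjusted p = 0.00885, and 0.0824 without GFPhigh 2). *PSMB4*, of the proteasome core, had 355 to 1177 in bihormonal cells, with bihormonal 4 the highest, against 258, 100 and 233 in GFPhigh cells (log2 ratio 1.61 ± 0.38 SE, adjusted p = 0.0352, and 0.211 without GFPhigh 2). *NDUFB5*, of respiratory complex I, had 362 to 986 in bihormonal cells and 235, 202 and 290 in GFPhigh cells (log2 ratio 1.23 ± 0.34 SE, adjusted p = 0.0479, and 0.240 without GFPhigh 2). In all 3 the groups did not overlap, and GFPhigh 2 was the lowest library. *PSMB4* and *NDUFB5* also lost their calls without bihormonal 4 or 5, and *NDUFB5* without GFPhigh 1. Of the 13 genes of the mitochondrial genome, 2 were called higher, *MT-CYB* and *MT-CO3*, with a list median of 0.53. *MT-CYB* had 24044 to 55805 in bihormonal cells and 17976, 14245 and 15605 in GFPhigh cells (log2 ratio 1.15 ± 0.29 SE, adjusted p = 0.0415, and 0.214 without GFPhigh 2). It also lost its call without bihormonal 4, bihormonal 5, GFPhigh 1 or GFPhigh 3. The summed level of the 13 genes was 206234 in bihormonal 6 and 223684 in GFPhigh 3. With library totals alone the mitochondrial median was 0.18, and the mitochondrial shares of the counts overlapped, as given above.

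**Figure D5:**
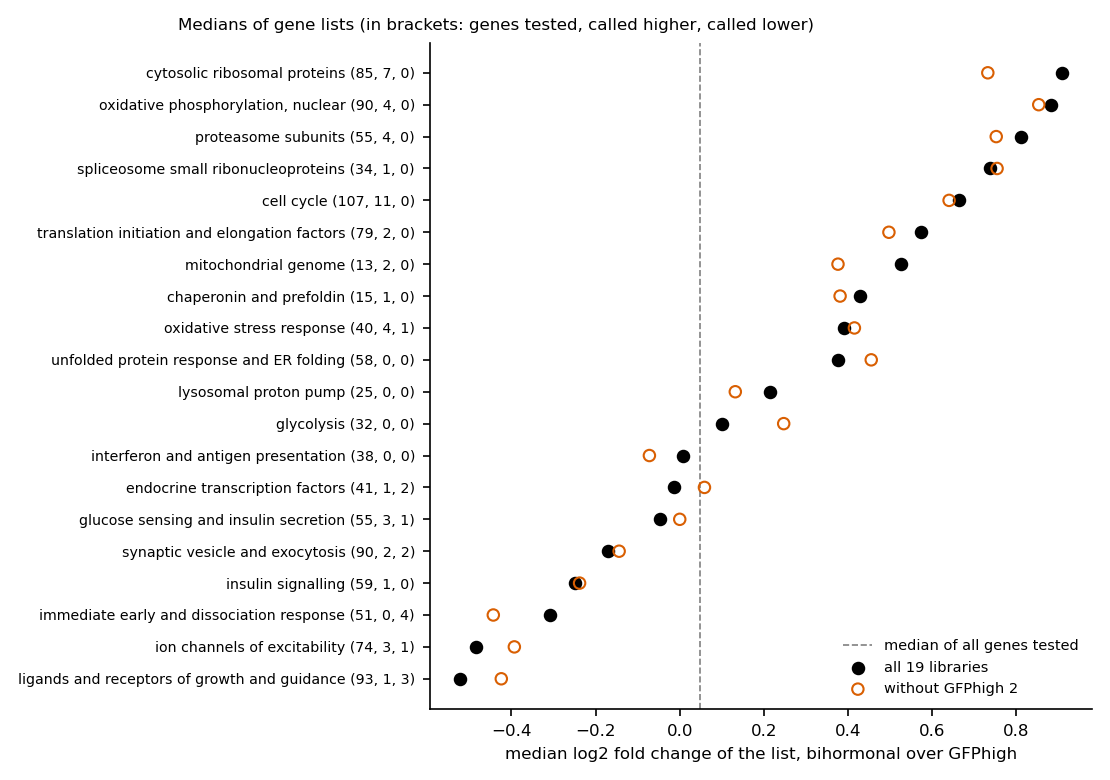
The median log2 ratio of gene lists, bihormonal over GFPhigh cells, with all 19 libraries (black) and without GFPhigh 2 (open orange), and in brackets the genes tested, called higher and called lower. The dashed line is the median of all genes tested, 0.05, and the ribosomal and guidance lists lie at the ends, at 0.91 and -0.52.

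Of 58 genes of the unfolded protein response and ER folding, 0 were called by edgeR, 15 were higher and 2 lower at an unadjusted p under 0.05, and DESeq2 called 5 higher. Their median was 0.38. Over all genes tested, edgeR's unadjusted p was under 0.05 for 4095 of 14693, in either direction. DESeq2 called 623 of 14604 genes higher and 529 lower. The list counts at an unadjusted p and by DESeq2 in this paragraph stand beside these. Of 40 oxidative stress genes, 4 (10.0%, against 1.42% of all genes) were called higher and 1 (2.50%, against 1.34%) lower. The median was 0.39. Those called higher were *GCLM*, *TXNIP* (ENSDARG00000070000), *TXN2* and *selenow1*, and *OXR1* (ENSDARG00000063310) was called lower (log2 ratio -1.73). *GCLM*, which makes glutathione, had 74.3 to 214 normalized counts in bihormonal cells and 35.1, 35.4 and 61.1 in GFPhigh cells (log2 ratio 1.47 ± 0.36 SE, adjusted p = 0.0408). Without GFPhigh 2 its adjusted p was 0.211, and it lost its call without bihormonal 4, bihormonal 5 or GFPhigh 1 as well. *TXNIP*, *TXN2*, *selenow1* and *OXR1* were not called without GFPhigh 2 either (adjusted p = 0.199, 0.245, 0.254 and 0.261). *TXNIP* was high in bihormonal 4 and 5, as given above. Of 90 genes of synaptic vesicles and exocytosis, 2 were called higher and 2 lower, with a median of -0.17. Of 32 glycolysis genes and 38 genes of interferon and antigen presentation, edgeR called 0. At an unadjusted p under 0.05, 5 glycolysis genes were higher and 3 lower, and 5 interferon genes were higher and 5 lower. DESeq2 called 1 glycolysis gene higher and 1 lower, and 0 interferon genes. The medians were 0.10 and 0.01, and -0.10 and -0.26 with library totals alone. Of 79 translation initiation and elongation factor genes 2 were called higher, of 34 genes of spliceosome small ribonucleoproteins 1, and of 15 chaperonin and prefoldin genes 1, with 0 lower in each and medians of 0.57, 0.74 and 0.43. Of 25 genes of the lysosomal proton pump, 0 were called by edgeR and by DESeq2, and 5 were higher and 1 lower at an unadjusted p under 0.05. Their median was 0.215, and -0.04 with library totals alone.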

How the data were processed

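RNA of sorted islet cells was measured in 19 libraries made with SMART-Seq2 and Nextera kits. The authors deposited raw read counts per gene, 1 table per library with 31901 gene IDs. Per the labels they used STAR, featureCounts, DESeq2 and the GRCz11 build, with versions not given in the sources used here. Symbols for 29178 IDs came from the gene name table. No genome, sequence or coordinate of the genes was used here, and reads shared between paralogs remain as the authors' counting left them.

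Groups were taken from the sample labels. The counts of all 19 libraries, scaled by trimmed means of M-values (TMM), entered an edgeR quasi-likelihood model that gives each group a mean, and all groups share an estimate of the spread (biological coefficient of variation 37.3%). The test took 14693 genes, those whose normalized counts averaged 10 or more, with Benjamini-Hochberg adjustment over all of them. Normalized counts are counts divided by the effective library size and multiplied by the mean effective library size. A standard error is the log2 fold change divided by the square root of the F statistic. Fold changes within the set pair used a pseudocount of 1 normalized count. In a group with 1 to 3 reads the ratio has an exact 95% counting interval. It is taken on reads summed over the libraries of each group, without the spread between pools.

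The members and gene lists were chosen with earlier results of these data known, and list counts are descriptions. Genes to name were those the study names for this comparison, in each direction at most 15 called genes of largest fold that averaged 100 or more normalized counts in the higher group and did not overlap, and the 6 genes of smallest p in every list. Others are said to be chosen after their values were seen. Some genes and gene lists are not reported here. On simulated counts with the means of these libraries, the test called 20.9% of genes changed 2-fold, 65.7% of those changed 4-fold and 90.9% of those changed 8-fold. It took 14534 genes and called 0 of those left unchanged. The simulated libraries varied independently, without library sets and without a library that stood apart as GFPhigh 2 did. So the simulation does not say how many calls in the real data are false. Alternatives covered other tests, scalings, filters, blocks and each library left out. Versions were edgeR 4.0.16, DESeq2 1.42.0 and limma 3.58.1, under R 4.3.3.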

Additional observations from a re-analysis of the deposited data

Results flagged for a closer look

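In groups of 6 bihormonal libraries, 17 of 126 sets of values held a library past Dixon's 95% critical value. The measure is its gap to the nearest other library as a share of the whole range. For normally spread values of sets chosen beforehand, about 1 in 20, or 6.3, would pass. These counts were not on a log scale and many genes were named for their values, so that rate need not hold here. Flagged *sst1.2* and *gip* are also part of flagged sums, those of *sst2* δ-cell genes and of epsilon and GIP cells. The 17 sets were 13 genes and 4 summed lists. Of these, 8 were in bihormonal 5, 4 in bihormonal 4, 3 in bihormonal 1 and 2 in bihormonal 6.

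In bihormonal 5 the high values were 4429 normalized counts for *RGCC*, 2852 for *gip*, which encodes an incretin peptide, 1653 for the apelin receptor gene *aplnrb* (chosen after its values were seen), 576 for *TXNIP* (ENSDARG00000070000), 575 for *SOSTDC1* and 460 for *tm4sf21a*. The summed endocrine transcription factors reached 92114 there, and the summed markers of epsilon and GIP cells 3652. In bihormonal 4 the somatostatin gene *sst1.2* reached 134574 normalized counts, *PSMB4* 1177, the summed *sst2* δ-cell genes 142197 and the summed genes of the unfolded protein response and ER folding 171675. In bihormonal 1 *IGF1* had 133, *PDGFA* (ENSDARG00000098578) 255 and *SULF2* 25.4. In bihormonal 6 the glucagon gene *GCG* had 26472 and *egr2a* 22.5. Bihormonal 4 and 5 also had the lowest TMM factors of the 9 libraries, 0.476 and 0.630, and the part of that in these values was not tested.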

How the results depend on the processing

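The counts of genes called higher and lower in bihormonal cells, 208 and 197 as reported, ranged from 8 to 485 and from 5 to 447 with 1 library left out. DESeq2's Wald test gave 623 and 529, library totals alone 21 and 29, a fit of the 2 groups alone 22 and 9, a 2-fold change tested inside the model 15 and 1, limma voom with quality weights 48 and 80, and the library set as a block 30 and 11. The quality weight of GFPhigh 2 was 0.181. With the replicate number as a block, 2 and 1 genes were called. The labels do not say that these numbers pair the samples. Deviations of same-numbered libraries correlated at -0.08, 0.09 and -0.20, and with 3 GFPhigh libraries such values cannot exclude a pairing. Chosen after seeing the data, DESeq2 without GFPhigh 2 gave 118 and 60, the 2 groups alone without GFPhigh 2 gave 4 and 1, and leaving out bihormonal 1 to 3 gave 1082 and 718. The cause of these changes was not tested. DESeq2's size factors gave 212 and 258, which moves the share of calls that are higher to 45.1% from 51.4%, as library totals do to 42.0%. TMM without hormone and mitochondrial genes, filterByExpr, no filter and robust spread stayed within 1.5 times of the reported counts. *fut9b.6*, which turned without GFPhigh 2, is not among the 93 genes followed through the alternatives. Each alternative tested 89 or more of the 93. Of the 93 genes, 73 were called, and 0 of these changed sign in any alternative that tested them. Every alternative shares libraries with the fit that called them. For genes with no count in any GFPhigh library, the depth gives a lower bound of the difference. The median of the δ-cell genes named by the study was -0.30 under the library set block, against 0.36.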
